A study of Mus musculus with 6 samples.

Results

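The 30 genes described here make, sense, move or break down cholesterol, and were chosen by name for those roles: 18 encode synthesis enzymes, 5 encode the SREBP control machinery, and 7 encode proteins of transport, efflux and turnover. They were followed in RNA sequencing of the anterior cingulate cortex, part of the medial frontal cortex, from BALB/c mice, an inbred strain. Of the 6 libraries, 3 are from the stress group, mice that an aggressor attacked and dominated over 5 days (social defeat), and 3 are from the non-stress group. The labels give no allele, drug, age or sex for either group, and they leave unstated whether every library is its own animal. The p-values therefore reflect only how these libraries vary, which may be technical. The members are 30 of 45777 genes in the deposited count table, and all 30 were among the 19227 genes tested. The members and the other gene lists were chosen with earlier results of these data known.

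The brain makes nearly all of its own cholesterol, because plasma lipoproteins do not cross the blood-brain barrier. Enzymes of the mevalonate arm build isoprene units, squalene is formed and closed into lanosterol, and a series of oxidations and reductions turns lanosterol into cholesterol. When sterols are scarce, the escort protein SCAP carries SREBP transcription factors from the endoplasmic reticulum to the Golgi, where they are cut and released to switch on these enzymes, while INSIG proteins hold SCAP back when sterols are plentiful. Surplus cholesterol leaves neurons largely through the hydroxylase CYP46A1, and liver X receptors sense oxysterols and switch on the exporters ABCA1 and ABCG1.

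Library totals ranged from 41623899 to 47212982 counts. On principal component 1, which held 34.5% of the variance of all tested genes, the value was 37.4 for non-stress 2, 27.4 for non-stress 3 and -11.7 for non-stress 1, which was nearer to the stress libraries at -20.4 to -14.9. The labels name no batch. Values without non-stress 1 are given where leaving it out moves a member by over 1.5 times or turns its sign. As this library lay nearer to stress, leaving it out can widen group differences, and p-values without it are descriptive only. Of the cortical excitatory neuron markers none was at 0 in any library, and their summed level was 1757 to 1921 CPM (counts scaled to a library total of 1000000) in non-stress and 1772 to 1796 CPM in stress. Oligodendrocyte markers, which belong to the myelinating cells that use most cholesterol, summed to 6301 CPM in non-stress 1, 7781 in non-stress 2 and 7629 in non-stress 3, and to 6921 to 7469 CPM in stress. Astrocyte markers summed to 3093 to 3235 and 3086 to 3174 CPM. None of the 12 oligodendrocyte or 10 astrocyte markers was at 0, and both ranges overlapped between the groups. Of 8 pituitary markers, only 2 were among the genes tested. Gh, Prl, Cga, Tshb, Lhb, Fshb and Pitx1 were each at 0 in at least 1 library, Fshb and Pitx1 in all. The sums of the 8 did not overlap, at 1.26 to 3.09 CPM in non-stress and 3.79 to 14.0 CPM in stress, and rest on few genes near 0. Of 10 inhibitory neuron markers, 5 were lower and 1 higher at an unadjusted p under 0.05, where 6.27% of all genes were lower and 5.80% higher, and their sums overlapped, the stress sums of 985 to 994 CPM lying within the non-stress range. The part of these markers in the results was not tested. In bulk tissue, fewer cells of a type and less RNA per cell cannot be told apart.

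Of the 5 promoter windows below, those of Hmgcs1 and Srebf2 carry a match to the sequence that SREBPs are known to read. The others belong to the 3 enzymes with the smallest p-values. Nsdhl, Hsd17b7 and Acat2 also carry a match, with 1 mismatch, and their windows are not shown. Each runs from 250 bases before to 50 bases after the start site, on the gene's strand, 5′ to 3′ (RefSeq, GRCm38.p6). The capitals mark matches, on either strand, to the sterol regulatory element TCACCCCAC with at most 1 mismatch, and to CCAAT, the box bound by NF-Y, which appears as ATTGG on the other strand. The windows are Hmgcs1 at chr13:119690101-119690400 (plus strand), Srebf2 at chr15:82147019-82147318 (plus), Idi1 at chr13:8885356-8885655 (plus), Ebp at chrX:8193463-8193762 (minus) and Lss at chr10:76531355-76531654 (plus).
Hmgcs1: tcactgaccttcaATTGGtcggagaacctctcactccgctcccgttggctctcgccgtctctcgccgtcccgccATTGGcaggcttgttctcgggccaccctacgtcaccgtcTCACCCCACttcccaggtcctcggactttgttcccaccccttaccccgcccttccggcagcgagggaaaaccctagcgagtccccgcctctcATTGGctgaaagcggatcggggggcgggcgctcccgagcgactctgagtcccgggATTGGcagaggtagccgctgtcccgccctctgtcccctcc
Srebf2: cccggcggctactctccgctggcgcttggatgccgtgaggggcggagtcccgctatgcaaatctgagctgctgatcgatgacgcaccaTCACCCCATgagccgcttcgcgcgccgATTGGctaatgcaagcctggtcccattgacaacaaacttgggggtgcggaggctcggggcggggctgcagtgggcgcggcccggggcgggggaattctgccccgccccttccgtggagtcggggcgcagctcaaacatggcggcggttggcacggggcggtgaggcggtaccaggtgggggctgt
Idi1: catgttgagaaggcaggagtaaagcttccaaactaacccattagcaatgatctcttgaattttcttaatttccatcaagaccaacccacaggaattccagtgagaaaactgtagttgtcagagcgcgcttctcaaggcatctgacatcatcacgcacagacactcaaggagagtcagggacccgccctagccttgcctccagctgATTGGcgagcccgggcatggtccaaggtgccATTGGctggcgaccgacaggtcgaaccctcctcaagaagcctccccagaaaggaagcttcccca
Ebp: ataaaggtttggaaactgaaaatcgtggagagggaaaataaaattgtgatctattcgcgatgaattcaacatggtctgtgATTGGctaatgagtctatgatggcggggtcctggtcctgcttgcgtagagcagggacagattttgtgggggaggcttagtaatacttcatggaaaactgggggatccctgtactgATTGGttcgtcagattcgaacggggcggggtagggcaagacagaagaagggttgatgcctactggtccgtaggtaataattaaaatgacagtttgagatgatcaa
Lss: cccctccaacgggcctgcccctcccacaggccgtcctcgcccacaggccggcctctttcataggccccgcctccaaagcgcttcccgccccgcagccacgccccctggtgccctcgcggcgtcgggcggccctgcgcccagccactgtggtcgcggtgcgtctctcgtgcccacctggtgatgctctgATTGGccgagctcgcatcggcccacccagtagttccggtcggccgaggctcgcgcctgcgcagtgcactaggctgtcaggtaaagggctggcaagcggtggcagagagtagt

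A window was found for 24 of the 30 members, some with several start sites. The 6 without one, Fdps, Fdft1, Sqle, Stard4, Abcg1 and Npc1, were not scanned. The sterol element, with at most 1 mismatch, was in a window of 5 of the 24, namely Hmgcs1, Nsdhl, Hsd17b7, Acat2 and Srebf2, or 20.8%, against 12.1% of the tested genes with a window. In Hmgcs1 it matched exactly, starting 137 bases before the start site, and in Srebf2 the match read TCACCCCAT. CCAAT was in 14 of the 15 synthesis enzymes with a window (93.3%), against 42.2% of tested genes. GGGCGG, a GC box read by SP1, was in 22 of 24 members (91.7%), against 62% of tested genes. These are letter matches in short windows, not shown to be binding sites, and genes with several windows have more chances of a match. Idi1, Ebp and Lss had CCAAT in these windows and no match to the sterol element.

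**Figure D1:**
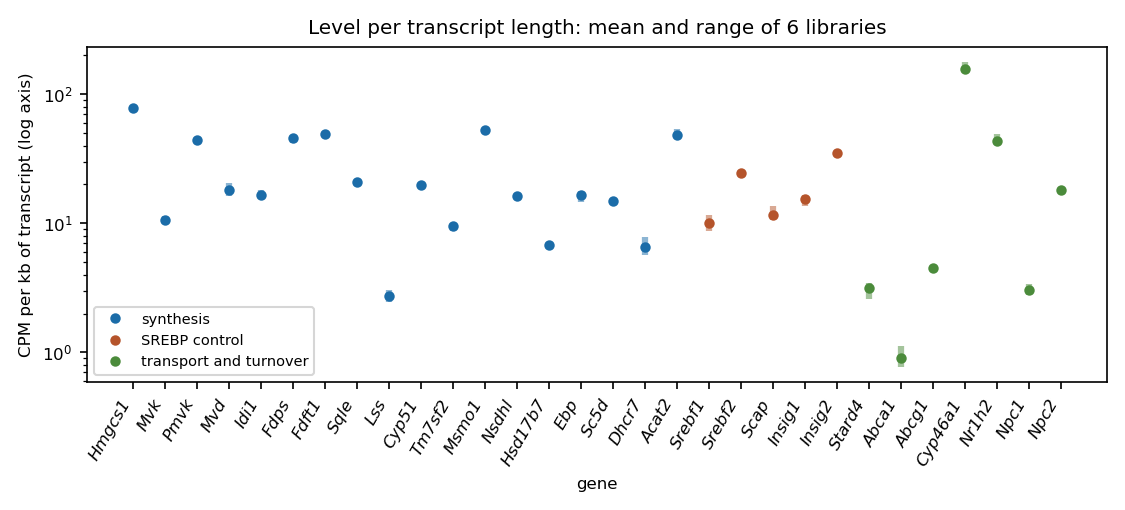
Level of each member as CPM per kilobase of its longest transcript on a log axis. Points are the mean of the 6 libraries and bars their range. Cyp46a1 is highest at 158 and Abca1 lowest at 0.901.

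Per kilobase of the longest annotated transcript, the members spanned a wide range in this cortex. Cyp46a1, the neuronal hydroxylase that makes 24-hydroxycholesterol, was the most abundant at 158 CPM per kb over the 6 libraries (SD 11.8, n = 6). Hmgcs1, the cytosolic HMG-CoA synthase, followed at 78.0 (SD 2.17). Msmo1, Fdft1, Acat2, Fdps, Pmvk and Nr1h2 came next, from 52.5 down to 43.2, and neighbours in that order differed by less than the sum of their SDs. Between the SREBP genes, Srebf2, which mainly drives cholesterol synthesis, stood at 24.7 (SD 0.954) and Srebf1, which mainly drives fatty acid synthesis, at 9.98 (SD 1.06). Insig2 stood at 35.1 (SD 1.16) and Insig1 at 15.3 (SD 1.15). The exporters were scarce, with Abcg1 at 4.49 (SD 0.116) and Abca1 at 0.901 (SD 0.123). These levels depend on the transcript length used, and Lss in particular, at 2.72, has a longest transcript of 6992 bases.

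Stress and non-stress libraries were compared to ask how repeated defeat relates to expression in this region. In edgeR's quasi-likelihood test with Benjamini-Hochberg adjustment, 0 of the 30 members reached an adjusted p under 0.05, and 1 of all 19227 genes did (0.00520%). DESeq2 called 0 members as well, against 0.661% of all genes. That share includes 7083 genes with no DESeq2 adjusted p, which could not be called, while every member had one. With limma-voom 0 members were called, and 2 of all genes tested. With smooth trends on GC content and transcript length removed, edgeR again called 0 members, against 0.0156% of all genes. At an unadjusted p under 0.05, edgeR gave 3 members higher in stress, Idi1, Ebp and Lss, and 1 lower, Srebf1, where 5.80% of all genes were higher and 6.27% lower. In that edgeR fit, with no trends removed, 4 of 30 members passed, where 12.1% of all genes passed in either direction, a similar share. The differences were small, from -0.23 to 0.20 on the log2 scale, with a median absolute value of 0.074 against 0.10 over all genes tested. The 3 higher members are all among the 18 synthesis enzymes. With the GC and length trends removed, 6 members were higher, all synthesis enzymes (Mvk, Idi1, Fdps, Fdft1, Lss and Ebp), and 1 lower (Srebf1). There 5.41% of all genes were higher and 6.14% lower.

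**Figure D2:**
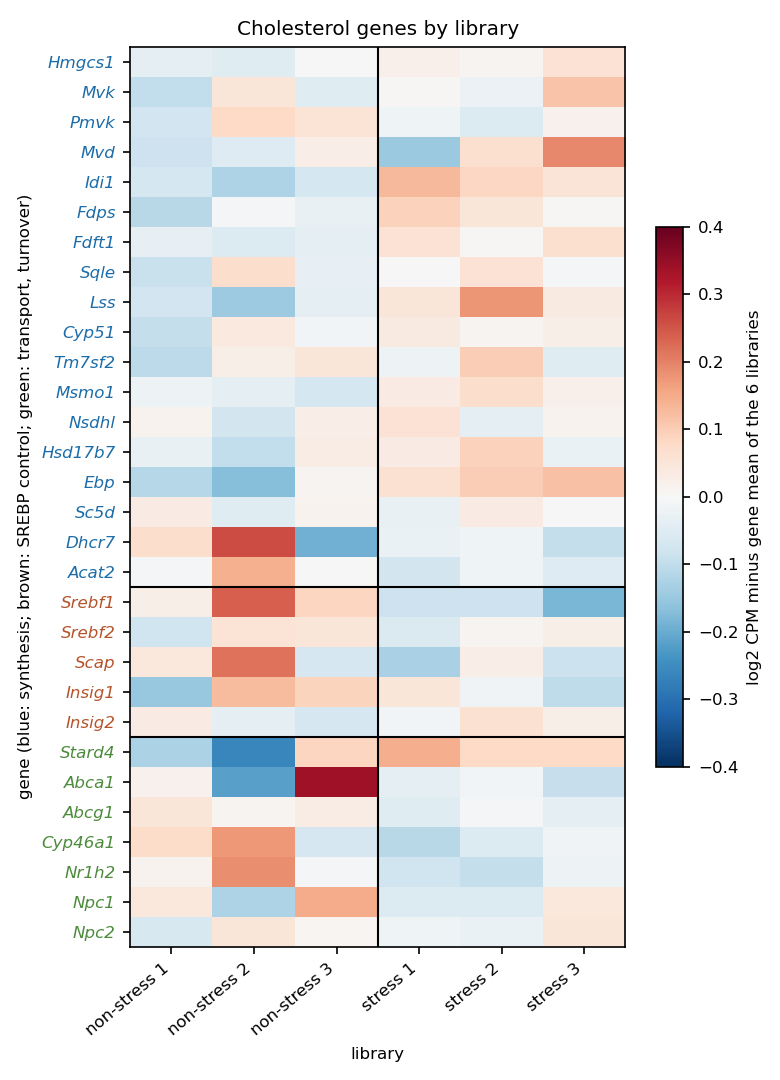
Log2 CPM of each member in each library minus the gene's mean over the 6 libraries. Red is above that mean and blue below; rows are grouped by role. Synthesis enzymes such as Idi1, Fdft1 and Msmo1 are above their mean in each stress library, while Srebf1 is above it in each non-stress library.

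The synthesis enzymes leaned towards higher values in stress. 15 of the 18 had a log2 fold change above 0, against 49.8% of all genes, and their median was 0.063, against -0.00053 over all genes. In 7 of the 18 each stress library lay above each non-stress library, where 8.43% of all genes did so. In 1 each stress library lay below, where 9.43% did so. Summed over the 18 enzymes, the level was 1373, 1408 and 1402 CPM in non-stress 1, 2 and 3 and 1442, 1448 and 1448 CPM in stress 1, 2 and 3. The groups did not overlap, and the mean sum was 3.71% higher in stress (1394 ± 19.0 against 1446 ± 3.66, SD, n = 3). Abundant enzymes supplied most of that difference. Mean CPM in non-stress and stress was 265 and 276 for Hmgcs1, and 178 and 189 for Fdft1. It was 151 and 160.2 for Msmo1, and 130.2 and 139 for Fdps. Lower in stress were 3 of the 18, among them Acat2 at 113 and 105. The enzymes share libraries and regulators and are not independent, so no p-value is given for the group. They were also chosen with earlier results of these data known, so these counts and sums describe the list and do not test it. Without non-stress 1 the median was 0.045, with 13 of 18 above 0.

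**Figure D3:**
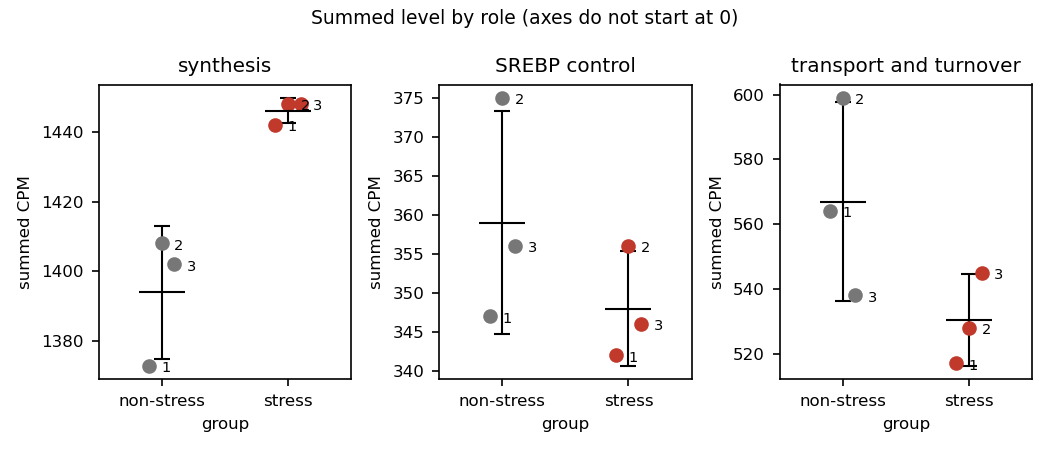
Summed CPM of the members of each role by library, with the mean and SD of 3 libraries; numbers are the replicate and axes do not start at 0. The stress libraries lie above the non-stress libraries for synthesis (1442 to 1448 against 1373 to 1408), and the groups overlap for the other roles.

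At the entry to the pathway, Acat2, the cytosolic thiolase that joins acetyl-CoA units, stood apart from most of the enzymes. It had 109, 120.1 and 109 CPM in non-stress and 103, 107 and 105 CPM in stress, each stress value below each non-stress value, although non-stress 1 and 3 lay close to the stress libraries. Its log2 fold change was -0.10 (SE 0.052, edgeR adjusted p = 0.480). Hmgcs1, which makes HMG-CoA, had 263, 261 and 270.3 CPM in non-stress and 274, 272 and 282 in stress. The groups did not overlap, but the gap from non-stress 3 to stress 2 was narrower than the spread within either group (log2 fold change 0.061, SE 0.037, adjusted p = 0.523). Over 12.1% of its exon bases Hmgcs1 overlaps a gene on the opposite strand.

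In the mevalonate steps that follow, Idi1 had the smallest p-value of the enzymes. Idi1 encodes isopentenyl-diphosphate isomerase, which balances the isoprene units, and lies on chromosome 13 (8885606 to 8892396, GRCm38). It had 48.0, 46.3 and 48.0 CPM in non-stress and 55.1, 53.4 and 52.3 CPM in stress. All stress libraries lay above all non-stress libraries, with little spread within either group. The log2 fold change was 0.18 (SE 0.048, 95% interval 0.068 to 0.29, edgeR unadjusted p = 0.00476, adjusted p = 0.344), or 1.13-fold. It lay between 0.15 and 0.19 with each library left out in turn, and at 0.11 once smooth trends on GC content and transcript length were removed (unadjusted p = 0.0460). Idi1 shares 9.22% of its exon bases with a gene on the opposite strand.

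Fdps, which makes farnesyl diphosphate, had 125, 134 and 132 CPM in non-stress and 143, 139 and 135 in stress (log2 fold change 0.10, SE 0.047, adjusted p = 0.450). The groups did not overlap, non-stress 2 and stress 3 nearly met, and the log2 fold change was 0.063 without non-stress 1. Fdps shares 26.7% of its exon bases with a model on the same strand. The 3 other enzymes of this arm, Mvk, Pmvk and Mvd, which phosphorylate mevalonate and decarboxylate it, overlapped between groups, with log2 fold changes of 0.066, -0.037 and 0.080. Without non-stress 1, Mvk was at 0.031 and Pmvk at -0.085. Mvd was the most variable, from 29.8 CPM in stress 1 to 37.7 CPM in stress 3.

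At the squalene steps, Fdft1, squalene synthase and the first enzyme committed to sterols, had 179, 176 and 178 CPM in non-stress and 191, 184 and 191 in stress. The non-stress libraries were nearly equal and all lay below stress (log2 fold change 0.085, SE 0.039, adjusted p = 0.419). It became 0.13 with the GC and length trends removed (unadjusted p = 0.00629, adjusted p = 0.295). Fdft1 shares 18.3% of its exon bases with Ctsb, a lysosomal protease gene on the opposite strand, and whether counting used strand is not given in the sources used here. Sqle, squalene epoxidase and a rate-limiting step, had 87.3, 97.5 and 90.8 CPM in non-stress and 92.8, 96.8 and 92.4 in stress. The groups overlapped fully (log2 fold change 0.033, SE 0.053, 95% interval -0.085 to 0.15), and the value was -0.0040 without non-stress 1. Lss, lanosterol synthase, which closes the sterol rings, had 17.96, 17.1 and 18.4 CPM in non-stress and 19.6, 21.4 and 19.4 in stress. All stress values were higher, stress 2 the most (log2 fold change 0.18, SE 0.069, unadjusted p = 0.0305, adjusted p = 0.386).

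**Figure D4:**
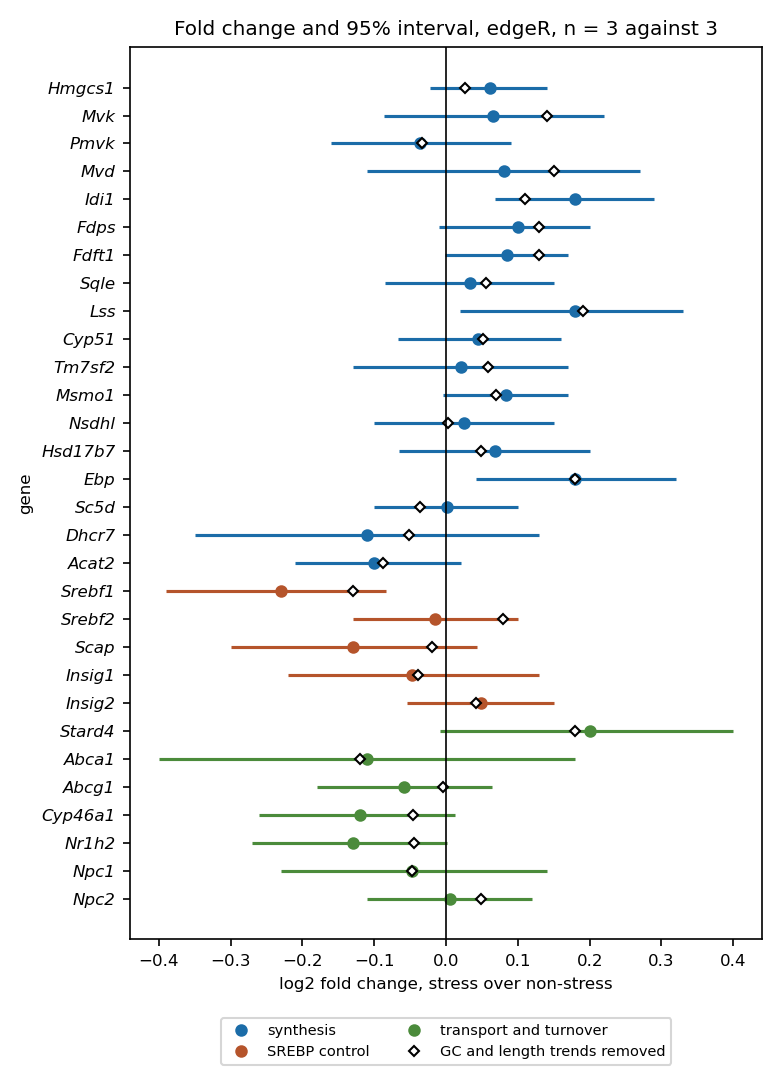
Log2 fold change of each member, stress over non-stress, with its 95% interval (edgeR, n = 3 against 3); diamonds give the value after smooth trends on GC content and transcript length were removed. The intervals of Idi1, Lss, Ebp and Srebf1 do not reach 0, and Srebf1 moves from -0.23 to -0.13 with the trends removed.

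In the late steps from lanosterol to cholesterol, Ebp and Msmo1 had groups that did not overlap. Ebp, the sterol isomerase on chromosome X, had 26.6, 25.6 and 28.97 CPM in non-stress and 30.01, 30.8 and 31.2 in stress. The stress libraries were close together and non-stress 3 was nearest to them (log2 fold change 0.18, SE 0.063, unadjusted p = 0.0161, adjusted p = 0.351). Msmo1, which oxidises methyl groups at carbon 4, had 154, 152 and 148 CPM in non-stress and 159, 163 and 158 in stress. Each stress library was higher, by a gap narrower than the spread within either group (log2 fold change 0.084, SE 0.039, adjusted p = 0.430). The other late enzymes overlapped between groups: Cyp51, Tm7sf2, Nsdhl, Hsd17b7 and Sc5d had log2 fold changes from 0.0017 (Sc5d) to 0.068 (Hsd17b7). Without non-stress 1, Cyp51 was at 0.0074, Tm7sf2 at -0.026 and Sc5d at 0.018. Tm7sf2 shares 12.1% of its exon bases with Vps51, a protein-coding gene on the same strand. Dhcr7, which reduces 7-dehydrocholesterol in the final step of one branch, had one of -0.11 with a wide SE of 0.11. Its non-stress values ran from 16.1 CPM in non-stress 3 to 22.01 in non-stress 2, and its stress values from 17.2 to 18.2.

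Of the 5 genes of SREBP control, 4 had a log2 fold change below 0, where 50.2% of all genes did, with a median of -0.047. Srebf1 was the only one of the 5 at an unadjusted p under 0.05, and the difference of these genes from the enzymes was not tested. The median depended on single libraries: it was -0.13 without non-stress 1 and 0.013 without non-stress 2. With the GC and length trends removed it was -0.020. Srebf1 had the smallest p-value. On chromosome 11 (60199084 to 60224186, GRCm38), it had 43.4, 50.3 and 45.4 CPM in non-stress and 40.3, 40.3 and 37.6 in stress. All stress libraries lay below all non-stress libraries, non-stress 1 being nearest and non-stress 2 farthest. The log2 fold change was -0.23 (SE 0.067, 95% interval -0.39 to -0.084, edgeR unadjusted p = 0.00618, adjusted p = 0.344), and DESeq2 gave an adjusted p of 0.102. Without non-stress 1 it was -0.28 (edgeR adjusted p = 0.0512), where 3.85% of all genes passed, and with any 1 library left out it lay between -0.28 and -0.16. With the GC and length trends removed it was -0.13 (unadjusted p = 0.0384), in a transcript of 58.4% GC against a median of 49.7% over tested genes. Exons of Rai1 on the opposite strand cover 1.93% of its exon bases.

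Srebf2, the cholesterol-directed paralogue, had 119, 130.4 and 129.9 CPM in non-stress and 121, 127 and 127 in stress. The groups overlapped, with a log2 fold change of -0.016 (SE 0.050, 95% interval -0.13 to 0.10) that became 0.079 with the trends removed and -0.061 without non-stress 1. Insig1, itself an SREBP target, had 36.9, 44.8 and 43.7 CPM in non-stress and 42.5, 40.7 and 38.3 in stress. Non-stress 1 was the lowest of the 6 libraries, and the log2 fold change was -0.047 (SE 0.079), or -0.13 without it. Insig2, which is less dependent on SREBP, ranged from 90.4 to 96.9 CPM in non-stress and from 93.9 to 98.7 in stress (log2 fold change 0.048, or 0.076 without non-stress 1). Scap, the sterol-sensing escort, ranged from 46.7 to 57.0 and from 44.8 to 49.9 CPM (-0.13, SE 0.077, adjusted p = 0.513). It was -0.020 with the trends removed, and it shares 13.2% of its exon bases with a gene on the opposite strand.

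Among the transport and turnover genes, 5 of 7 had a log2 fold change below 0 (50.2% of all genes did), and the median was -0.059. Without non-stress 3 that median was 0.0082. Summed over the 7, the level was 564, 599 and 538 CPM in non-stress and 517, 528 and 545 in stress, so the groups overlapped. Cyp46a1 makes up most of this sum. It had 351, 376 and 317 CPM in non-stress and 308, 320.2 and 329.6 in stress. Non-stress 3 lay among the stress libraries, and the log2 fold change was -0.12 (SE 0.061, adjusted p = 0.450), or -0.046 with the GC and length trends removed.

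Nr1h2 encodes liver X receptor beta, the oxysterol sensor common in brain. It had 87.2, 98.2 and 86.0 CPM in non-stress and 81.6, 80.7 and 85.0 in stress. All stress libraries were lower, but stress 3 and non-stress 3 nearly met (log2 fold change -0.13, SE 0.060, unadjusted p = 0.0526, adjusted p = 0.418). With the trends removed it was -0.044, in a transcript of 60.6% GC. Its target exporter Abcg1 had 27.1, 26.4 and 26.8 CPM in non-stress and 25.3, 26.1 and 25.6 in stress. These are tight groups that did not overlap, and the fold change on the log2 scale was -0.059 (SE 0.055, edgeR adjusted p = 0.690), or -0.0041 with the trends removed. Abca1, the other exporter, had 9.30, 7.90 and 11.6 CPM in non-stress and 8.94, 9.11 and 8.62 in stress. The non-stress libraries spread on both sides of stress, so the log2 fold change of -0.11 has an interval of -0.40 to 0.18.

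Stard4, a carrier of sterol between membranes that SREBP2 induces, had the highest log2 fold change of the members, at 0.20 (SE 0.092, unadjusted p = 0.0587, adjusted p = 0.429). It had 14.6, 13.3 and 16.9 CPM in non-stress and 17.6, 16.8 and 16.8 in stress, with non-stress 3 inside the stress range. Npc1 and Npc2, which pass cholesterol out of lysosomes, had log2 fold changes of -0.047 and 0.0054, and their groups overlapped. Without non-stress 1 Npc2 was at -0.027.

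**Figure D5:**
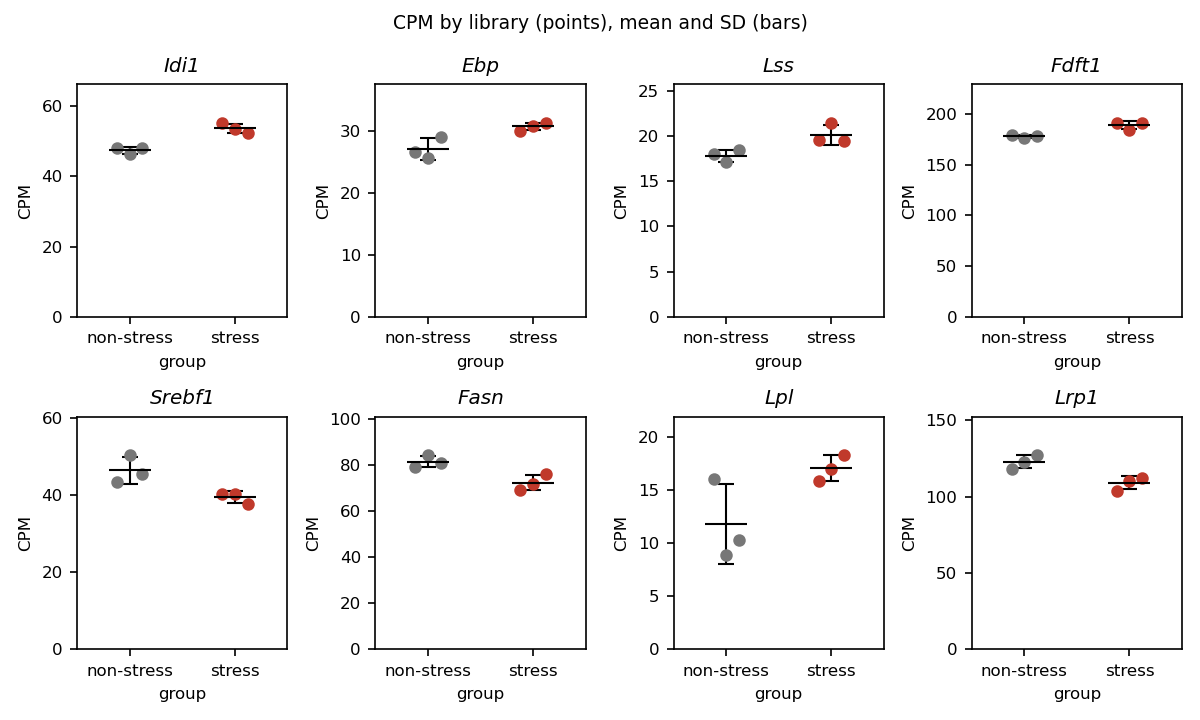
CPM by library for 4 synthesis enzymes (upper row) and for Srebf1, Fasn, Lpl and Lrp1 (lower row), with the mean and SD of 3 libraries; axes start at 0. The groups do not overlap except for Lpl, where non-stress 1 at 16.1 CPM lies within the stress range of 15.9 to 18.3.

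A list of 49 other genes of cholesterol uptake, esterification, oxysterol synthesis and SREBP-driven lipid synthesis, put together by role, gave the surroundings. In edgeR none passed at an adjusted p under 0.05, and DESeq2 called none. At an unadjusted p under 0.05, 1 was higher and 5 were lower in stress, or 6 of 49, where 12.1% of all genes passed. 33 of the 49 had a log2 fold change below 0, where 50.2% of all genes did. Their median was -0.043, or -0.023 with the GC and length trends removed.

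Genes that handle lipoproteins were among those of smallest p in that list. Lrp1, a large receptor for apolipoprotein E, had 118, 123 and 127 CPM in non-stress and 104, 110.4 and 112 in stress, with no overlap (log2 fold change -0.17, SE 0.048, edgeR adjusted p = 0.344). Apoe, the main lipoprotein component secreted by astrocytes, stood at 2360.3, 2400.0 and 2382 CPM in non-stress and 2357, 2396 and 2579 in stress, with only stress 3 standing out. Lpl, which hydrolyses lipoprotein triglyceride, had 16.1, 8.90 and 10.3 CPM in non-stress and 15.9, 17.0 and 18.3 in stress (0.54, SE 0.18, adjusted p = 0.351). Non-stress 1 was at the stress level. Without non-stress 1, the non-stress library nearest to stress on principal component 1, Lpl was at 0.83 and Lrp1 at -0.20 on the log2 scale. Both then passed edgeR's threshold (adjusted p = 0.00104 and 0.0436). They were 2 of the 49 listed genes, a share similar to the 3.85% of all genes that passed. Genes called numbered 756 in that fit, against 1 or 2 with any other library left out. These p-values therefore do not set lipoprotein genes apart.

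Fasn, fatty acid synthase and a main target of SREBP1, had 79.4, 84.2 and 81.0 CPM in non-stress and 69.4, 71.8 and 76.1 in stress. All stress libraries were lower (log2 fold change -0.17, SE 0.051, edgeR adjusted p = 0.345), and the value was -0.11 with the GC and length trends removed. The other lipid synthesis genes of that list went both ways. Me1 was at 0.10, each stress library above each non-stress library, and Fads2 at 0.041. Below 0 were Fads1 (-0.0053), Scd2 (-0.037), Acly (-0.043), Elovl6 (-0.046), Acss2 (-0.076), Scd1 (-0.077) and Acaca (-0.086). Except for Me1, the groups of these genes overlapped. Osbpl2, an oxysterol-binding transfer protein, had 87.2, 94.0 and 92.1 CPM in non-stress and 83.2, 82.9 and 84.8 in stress (-0.12, adjusted p = 0.385). Lcat, which esterifies cholesterol on lipoproteins, had 25.2, 26.2 and 25.6 CPM and 22.5, 22.9 and 24.0 CPM (-0.15, adjusted p = 0.388). In both, each stress library lay below each non-stress library.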

How the data were processed

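The authors deposited 1 table of raw counts by gene, 1 column for each library, used unchanged. Per the submitters' processing notes, Trimmomatic 0.38, HISAT2 and StringTie were used, with build GRCm38 (mm10). The counting step, its use of strand and the annotation release were not given in the sources used here. 10 members share exon bases with another gene (GENCODE M21), so their reads may be shared.

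Counts were tested with edgeR 4.0.16 (R 4.3.3): filterByExpr, TMM factors, quasi-likelihood test with group as the single term, two-sided, Benjamini-Hochberg adjustment over 19227 genes, threshold 0.05. CPM are counts scaled to a deposited total of 1000000. Depth was 41623899 to 47212982 counts per library. Standard errors come from the F statistic. Replicates differed by more than sampling noise (chi-square per degree of freedom 4.52 or more), so each library counts as 1 sample. The script was tested on simulated data.

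Alternatives were other scaling, other filters, leaving out each library, a replicate block, DESeq2 1.42.0, limma-voom (limma 3.58.1), and removal of smooth GC and length trends (mgcv 1.9.3; values for 90.05% of tested genes). The members and lists were chosen with earlier results of these data known. Values were given per library for members with an unadjusted p under 0.05 or groups that do not overlap, and always for Srebf1, Srebf2, Insig1, Sqle, Cyp46a1 and Abca1. Of the other pathway genes they were given for the 5 of smallest p and always for Apoe; some other genes of that list are not reported here.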

Additional observations from a re-analysis of the deposited data

How the results depend on the processing

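Members past the threshold numbered 0 in all 16 alternatives, with a smallest adjusted p of 0.0512 (Srebf1 without non-stress 1). Genes called over the whole table numbered 1, and 2 with the replicate block, 127 with DESeq2, 2 with limma-voom, 14 with quality weights, 3 with the GC and length trends removed, 4 with block and trends together, and 1 to 756 with 1 library left out, the 756 being without non-stress 1. Of the other pathway genes, 0 to 2 passed with 1 library left out. Members higher at an unadjusted p under 0.05 numbered 3, where 5.80% of all genes were higher. They numbered 5 with the filter of 50 counts (6.79% of all genes), 6 with quality weights (7.66%) and 6 with the trends removed (5.41%). They numbered 2 with the replicate block (5.75%), 4 with limma-voom (6.54%) and 4 with block and trends (5.40%), where Idi1 was not among them. With 1 library left out they numbered 2 to 4, where 3.01% to 9.84% of all genes were higher. Members lower numbered 1, where 6.27% of all genes were lower. They numbered 2 with total counts only (6.48% of all genes), 2 with no filter (4.72%) and 2 with DESeq2 (5.47%). With the replicate block and trends together they numbered 0 (5.61%). With 1 library left out they numbered 1 to 5, where 3.36% to 9.61% of all genes were lower. The 5 were without non-stress 3, where 6.66% of all genes were lower.

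The synthesis median kept its sign in all 16 alternatives (0.045 to 0.080). The SREBP control median was -0.020 with the trends removed and -0.019 with block and trends. It ranged from -0.13 to 0.013 with 1 library left out. The transport and turnover median was -0.078 with quality weights, -0.044 with the trends removed, -0.044 with block and trends, and -0.080 to 0.0082 with 1 library left out. Single genes near 0 changed sign. Sc5d was -0.0018 with no filter, -0.0033 with quality weights and -0.036 with the trends removed, with or without the block. Srebf2 was 0.079 with the trends removed and 0.080 with the block added. With 1 library left out, ranges that crossed 0 were -0.00070 to 0.16 for Mvd, -0.0040 to 0.084 for Sqle, -0.026 to 0.050 for Tm7sf2, -0.0011 to 0.051 for Nsdhl, -0.017 to 0.018 for Sc5d, -0.22 to 0.014 for Dhcr7, -0.061 to 0.013 for Srebf2, -0.13 to 0.013 for Insig1, -0.23 to 0.047 for Abca1, -0.11 to 0.015 for Npc1 and -0.027 to 0.037 for Npc2. The cause was not tested.

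The sterol element was in 5 members with at most 1 mismatch, in 1 with none, and in 2 with the shorter core CACCCCAC. The labels state no pairing by replicate number. Same-numbered deviations correlated at 0.016, -0.030 and 0.021 across genes, and differently numbered ones at -0.050 to 0.036. With 3 libraries per group, these values cannot show whether the libraries were paired. The replicate block called 0 members, as did the fit without it.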
